A study of Mus musculus with 18 samples.

Results

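The gap between tolerized and naive T cells under PI was set against the same gap under antigen (Ag), gene by gene, in 12 RNA-seq libraries of a series of 18. PI is a mixture of the phorbol ester PMA and the calcium ionophore A23187. All genes of the count tables were eligible, and 17240 of 37991 were tested. Splenic CD4+ T cells were enriched from Tg4-H2u mice of both sexes, aged 6 to 12 weeks, in which a transgenic TCR recognizes the Ac1-9 peptide of myelin basic protein. Tolerized cells came from mice given repeated, escalating subcutaneous doses of the 4Y form of this peptide, and naive cells from control mice given PBS on the same schedule. In the Ag groups (NAg for naive and TAg for tolerized cells) a last dose of 80 μg peptide was injected 2 h before harvest. In the PI groups (NPI and TPI) purified cells were kept in culture for 2 h with PMA at 20 ng/ml and the ionophore at 2 μM. Each group had 3 biological replicates, and the remaining 6 libraries were resting naive and tolerized cells that received PBS. Ag was given to the whole animal and PI to cells in culture, so that the kind of stimulus and the place where it was given cannot be told apart.

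A T cell meets peptide through its TCR and CD28, whose proximal kinases and adaptors activate phospholipase C, and this in turn opens the calcium path to NFAT and the protein kinase C and RAS paths to NF-kB and AP-1. PMA stands in for diacylglycerol and the ionophore admits calcium, so that PI enters the cascade below the receptor and its proximal kinases. Peptide-tolerized CD4+ T cells are known for poor IL-2 production, for inhibitory receptors on their surface and for IL-10. The comparison therefore separates differences between the cell states that depend on the way of stimulation from those present under both.

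Total counts ranged from 11937546 to 13559974 in NAg, from 10919277 to 12600325 in TAg, from 14895843 to 19878476 in NPI and from 16196386 to 24119489 in TPI, so that the PI libraries were the deeper ones. The CD4 T cell markers were present in all groups, with summed normalized counts of at least 15084 in every library. Neutrophil markers moved with the cell state: 10 of 13 were called higher in TAg than NAg (3.61% of all tested genes were) and 3 of 13 in TPI than NPI (3.38%). Their summed normalized counts were 154 to 458 in NAg, 2555 to 4744 in TAg, 68.8 to 175 in NPI and 437 to 745 in TPI, and *Ngp*, *Ltf*, *Camp*, *Cebpe* and *Ly6g* were at 0 in all NPI libraries. Of 10 macrophage or monocyte markers, 1 was higher and 2 lower in TAg than NAg, and 2 were higher in TPI than NPI. Their sums were 972 to 2946 in NAg, 1381 to 2141 in TAg, 519 to 708 in NPI and 930 to 1138 in TPI. CD8 T cell markers reached at most 197 in any library, and 1 of the 2 was lower in the tolerized cells under each stimulus. Of 8 erythroid markers, 1 was called higher in TAg and 0 in TPI. The erythroid sums overlapped with Ag, at 117 to 373 in NAg and 181 to 1699 in TAg. With PI they were apart, at 22.1 to 62.4 in NPI and 221 to 367 in TPI. No B cell, NK cell, dendritic cell or platelet marker was called in either gap. In bulk libraries, fewer cells of a type and less RNA per cell cannot be told apart. At least 5111 sex-linked reads were counted in all 6 PI libraries and in TAg replicate 3, and at most 18 in the other 5 Ag libraries, so that within naive cells the sex of the mice and the stimulus cannot be told apart. The part of these markers and reads in the results was not tested beyond the fits that carry them as covariates.

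For each gene, the gap is the log2 ratio of tolerized to naive cells under 1 stimulus, and the difference of gaps is the gap with PI minus the gap with Ag. A positive difference means that tolerized cells stood higher, relative to naive cells, with PI than with Ag. A gene was called at an adjusted p under 0.05 (quasi-likelihood F test of edgeR, adjusted by Benjamini-Hochberg), an absolute log2 value of at least 1 and a mean normalized count above 50 in the higher group, or in the highest of the 4 groups for the difference of gaps. The median difference of gaps over all tested genes was −0.054, and −0.000719 to 0.000907 with the scaling of DESeq2.

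The gap changed with the stimulus for 2058 genes. The difference of gaps was called above 0 for 858 genes (4.98% of those tested) and below 0 for 1200 (6.96%). With Ag, 622 genes (3.61%) were higher and 353 (2.05%) lower in tolerized cells. With PI, 583 (3.38%) were higher and 383 (2.22%) lower. The totals are alike for both stimuli, but most genes called under either were not called under the other. Of the 353 genes lower with Ag, 280 had no call with PI, as had 440 of the 622 higher. A missing call alone does not show that the gap was absent or had changed. Lower in tolerized cells under both were 33 genes, 9.35% of those lower with Ag and 8.62% of those lower with PI. These shares compare with 2.22% and 2.05% of all tested genes. Higher under both were 162 genes, 26.0% of those higher with Ag and 27.8% of those higher with PI. The matching shares of all tested genes were 3.38% and 3.61%. A further 40 genes were lower with Ag and higher with PI, and 20 were higher with Ag and lower with PI. For 1030 genes the difference of gaps was called although neither gap was, 372 of them above 0 and 658 below.

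**Figure D1:**
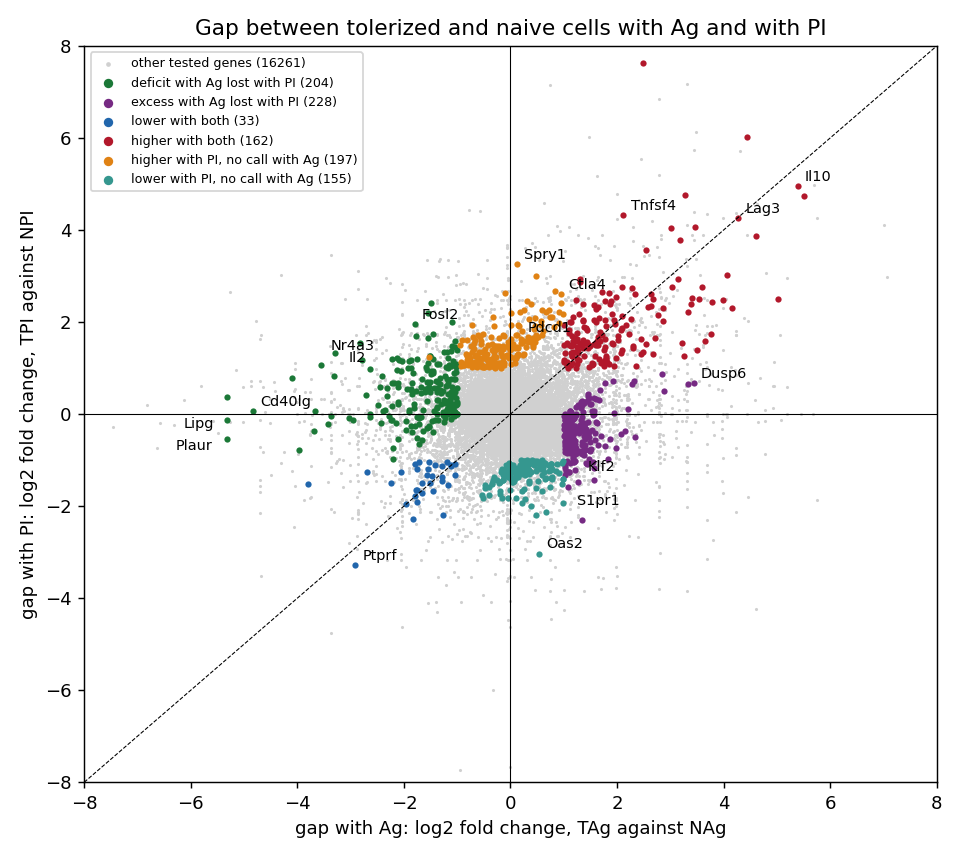
Gap between tolerized and naive cells with Ag (horizontal axis, log2) against the gap with PI (vertical axis, log2) for the tested genes, 4 of which lie outside the axes of ±8. Colors mark the 204 genes whose Ag deficit was lost with PI, the 228 whose Ag excess was lost, the 33 lower and 162 higher with both, and the genes called with PI and not with Ag (197 higher, 155 lower), while 16261 other genes are gray. Genes lower with Ag lie mostly around or above 0 with PI, and the genes higher with both form an arm along the diagonal.

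The first question was which deficits of tolerized cells seen with Ag were absent with PI. Of the 353 genes lower in TAg than NAg, 288 had a mean normalized count above 50 in at least 1 PI group, and 65 did not, so that nothing can be said on a PI gap of that size for the latter. For 226 of the 288 (78.5%) the 95% confidence interval of the gap with PI lay above −1, so that a 2-fold deficit was outside it, against 90.4% of all 10350 genes at this level. The median gap of the 353 genes was −1.46 with Ag and 0.07 with PI. With PI their replicates separated with TPI lower for 113 genes (32.0%) and with TPI higher for 139 (39.4%), while over all tested genes these shares were 26.4% and 24.1%. The Ag deficit was counted as lost where the gap was called with Ag, the difference of gaps was called above 0, PI left no called deficit and the gene was above 50 in a PI group. This held for 204 genes, 57.8% of those lower with Ag. A smaller deficit could remain: with PI the replicates of 26 of the 204 still separated with TPI lower, against 26.4% of all tested genes. The median gap of the 204 was −1.50 with Ag, 0.44 with PI and −0.11 at rest. At rest 7 of the 204 were higher and 7 lower in tolerized cells, against 2.61% and 0.644% of all tested genes. The rule for this class uses the Ag and the PI libraries, so these medians of both gaps are descriptions.

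*Cd40lg* (chrX:54465320-54477219 in NCBIM37), the ligand through which helper T cells signal to CD40 on B cells and other antigen-presenting cells, had the clearest such pattern among the immune response genes. Its normalized counts were 8013, 8833 and 6720 in NAg and 340, 246 and 246 in TAg, against 8750, 10717 and 9265 in NPI and 9796, 10102 and 10201 in TPI. The Ag groups stood far apart, the PI groups overlapped, and TAg alone was low among the stimulated groups. Resting naive and tolerized cells had 969 and 406 on average, so that tolerized cells were lower at rest as well (gap −1.25). Under stimulation the gap was −4.82 (standard error 0.17) with Ag and 0.07 with PI (95% confidence interval −0.22 to 0.35), and the difference of gaps was 4.89 (standard error 0.21, adjusted p = 3.12e-11, from the same edgeR test as every adjusted p below).

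*Il2* (chr3:37019445-37024881), the T cell growth factor, had 5024, 5268 and 3063 in NAg, 844, 517 and 788 in TAg, 3878, 4870 and 4015 in NPI and 6226, 8577 and 10172 in TPI. The order of the cell states turned with the stimulus: each TPI library was above each NPI library, without overlap. The difference of gaps was 3.60 (standard error 0.34, adjusted p = 1.92e-06), and the levels of naive cells with both stimuli overlapped (log2 ratio of NPI to NAg −0.07, 95% confidence interval −0.56 to 0.43). *Plaur* (chr7:25247519-25260892), the urokinase receptor, had 2281, 2795 and 1924 in NAg and 55.0, 52.5 and 65.6 in TAg, but 773, 832 and 828 in NPI and 468, 555 and 650 in TPI. Here TPI stayed below NPI without overlap, and both PI groups lay between the Ag groups. The gap went from −5.33 to −0.54 (95% confidence interval −1.09 to 0.02), a difference of 4.79 (standard error 0.42, adjusted p = 9.56e-07), to which a rise in tolerized cells (3.27) and a fall in naive cells (−1.52) both added.

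Among genes of this class that share no exon with another gene, the largest difference was that of *Lipg*, which encodes endothelial lipase. Its counts were 1352, 2022 and 2334 in NAg, 34.1, 44.1 and 62.5 in TAg, 53.0, 92.4 and 99.3 in NPI and 62.2, 82.3 and 80.6 in TPI. Only NAg was high, and with PI the gene stayed low in both cell states: the difference of gaps of 5.19 (standard error 0.41, adjusted p = 1.36e-07) came from the naive side, where NPI was below NAg by 4.53 on the log2 scale (log2 ratio −4.53), while the change in tolerized cells did not pass the test (0.66, adjusted p = 0.088). Lost deficits thus held changes in either cell state. Tolerized cells were higher with PI than with Ag for 141 of the 204 genes, and naive cells were lower for 66, against 12.4% and 13.1% of all tested genes. Both changes are parts of the difference of gaps by which the class was chosen, so that these counts are descriptions. For 78 genes the tolerized cells alone rose from Ag to PI and for 43 both states rose, as did *Epha2*, an ephrin receptor (2.38 to 6.61 in TAg, 83.2 to 215 in TPI, 51.5 to 63.4 in NAg and 109 to 187 in NPI). For 20 the tolerized cells rose and the naive cells fell, for 41 the naive cells alone fell, for 5 both fell, and for 17 neither change was called. *Vcam1*, an adhesion molecule that is also one of the macrophage markers, is of the kind in which the naive libraries fell: 675, 152 and 72.6 in NAg, 33.0, 26.2 and 31.8 in TAg, 16.6, 23.1 and 19.5 in NPI and 38.8, 63.7 and 48.6 in TPI. Its NAg libraries spread widely, and the difference of 4.62 (standard error 1.11, adjusted p = 0.00501) was 3.22 without NAg replicate 1. The macrophage markers *C1qa*, *C1qb* and *C1qc* fell as well, from averages of 43.6, 58.4 and 48.3 in NAg to 0.37, 0.65 and 0.65 in NPI. The marker *Cd14* rose from 43.7 to 62.3. The part of macrophages in the change of *Vcam1* was not tested. The fit with marker scores cannot decide it, since its myeloid score holds *Vcam1* itself and also the neutrophil markers.

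**Figure D2:**
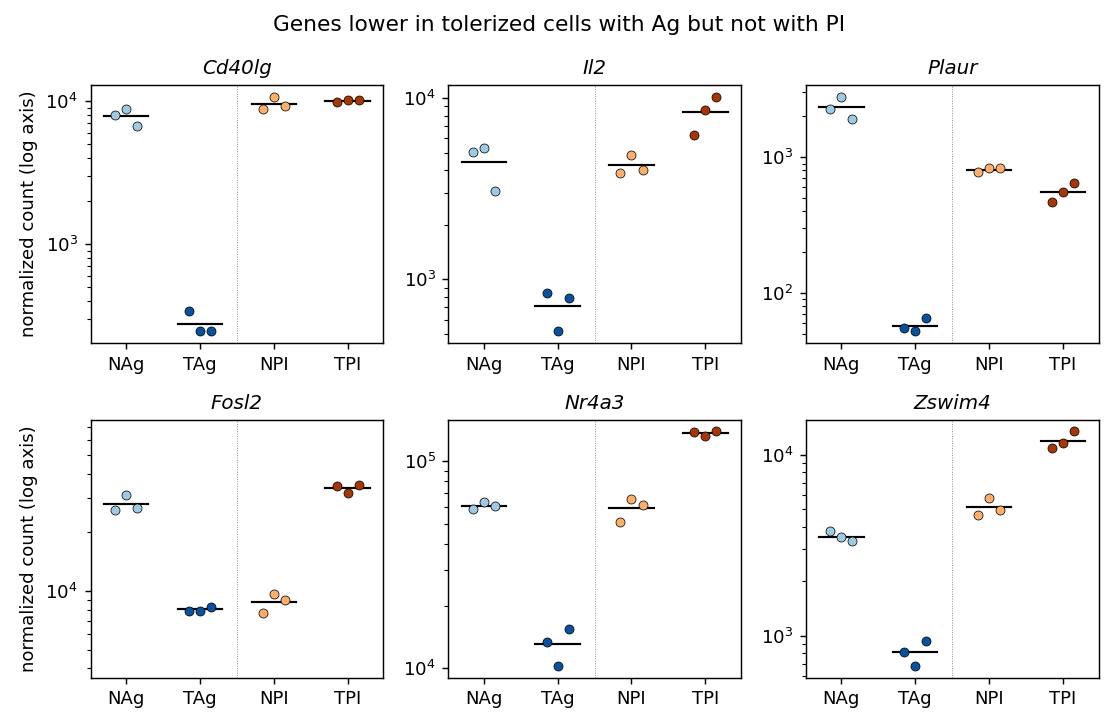
Normalized counts (log axis) of *Cd40lg*, *Il2*, *Plaur*, *Fosl2*, *Nr4a3* and *Zswim4* in NAg, TAg, NPI and TPI, with 1 point per library and a bar at the mean of 3. TAg is the lowest group or nearly so for each gene, while TPI lies near NPI for *Cd40lg*, somewhat below it for *Plaur* and above it for *Il2*, *Fosl2*, *Nr4a3* and *Zswim4*.

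Within this class, 40 genes turned over: tolerized cells were called lower with Ag and higher with PI. *Fosl2* (chr5:32438845-32460204), a FOS-family subunit of AP-1, had the largest difference of gaps among the named genes of this kind that share no exon with another gene. Its counts were 26179, 31276 and 26615 in NAg, 7886, 7932 and 8322 in TAg, 7736, 9606 and 8943 in NPI and 34755, 31919 and 35214 in TPI. The groups formed a high pair, NAg and TPI, and a low pair, TAg and NPI, with no library in between. The gap was −1.80 with Ag and 1.95 with PI, and the difference 3.75 (standard error 0.13, adjusted p = 5.09e-16). *Nr4a3* (chr4:48058025-48099319), an orphan nuclear receptor and early target of NFAT, had 58672, 63402 and 60883 in NAg, 13432, 10271 and 15472 in TAg, 50930, 66020 and 61686 in NPI and 139000, 132770 and 139380 in TPI. The levels of naive cells with both stimuli overlapped, and tolerized cells were below them with Ag and above them with PI, a difference of gaps of 3.43 (standard error 0.20, adjusted p = 4.42e-10). *Zswim4*, a zinc finger gene, followed the same course, with 3322 to 3770 in NAg, 680 to 934 in TAg, 4672 to 5749 in NPI and 10887 to 13467 in TPI (difference 3.35, standard error 0.14).

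*Aig1* (3.75, standard error 0.19), *Syde2*, which encodes a GTPase-activating protein (3.47, standard error 0.36), the pseudokinase gene *Trib1* (3.28, standard error 0.19), the semaphorin *Sema7a* (3.21, standard error 0.24) and *Sdcbp2* (3.21, standard error 0.30) also turned over. They did so from different sides. *Sema7a* fell from 20761 to 25380 in NAg to 1784 to 2536 in NPI. Its levels in TPI (6118 to 6743) were only a little below those in TAg (6978 to 8354), so that the larger change was in naive cells. *Trib1* rose in tolerized cells by 3.52 (adjusted p = 3e-13) and in naive cells by 0.24 (adjusted p = 0.12). *Syde2* was lower with PI in both states, by more in naive (−5.51) than in tolerized cells (−2.05).

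Promoters are shown for 3 genes of distinct course: *Plaur*, whose deficit shrank and was counted as lost, *Fosl2*, which turned over, and *Lpar3*, described below, which stayed higher in tolerized cells. Each run is the 250 bases before the RefSeq gene start in GRCm38.p6, on the + strand of the genome. Capitals mark matches on either strand to the AP-1 site TGANTCA, the NFAT core GGAAA and the NF-kB site GGNNTTTCC.
Plaur, chr7:24462233-24462482: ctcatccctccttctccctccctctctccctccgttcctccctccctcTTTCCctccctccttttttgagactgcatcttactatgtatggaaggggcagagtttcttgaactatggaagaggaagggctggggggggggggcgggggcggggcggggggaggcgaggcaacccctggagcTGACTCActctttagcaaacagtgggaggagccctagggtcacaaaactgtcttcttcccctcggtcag
Fosl2, chr5:32136222-32136471: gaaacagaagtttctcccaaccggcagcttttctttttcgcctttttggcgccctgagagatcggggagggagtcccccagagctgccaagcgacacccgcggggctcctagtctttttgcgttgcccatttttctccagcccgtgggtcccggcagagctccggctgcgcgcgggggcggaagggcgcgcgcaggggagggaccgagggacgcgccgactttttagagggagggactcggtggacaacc
Lpar3, chr3:146220711-146220960: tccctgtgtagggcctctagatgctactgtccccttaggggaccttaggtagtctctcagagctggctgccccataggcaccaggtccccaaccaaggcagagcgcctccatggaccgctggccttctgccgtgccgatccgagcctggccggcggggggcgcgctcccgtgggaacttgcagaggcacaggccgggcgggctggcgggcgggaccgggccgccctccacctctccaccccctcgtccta
The *Plaur* window held 1 AP-1 match, TGACTCA, and 1 NFAT core on the reverse strand, and the windows of *Fosl2* and *Lpar3* held none. Of 32851 promoter windows of this length, 6.75% held the AP-1 site, 55.6% the NFAT core and 4.93% the NF-kB site. These matches describe the letters of the windows. *Cd40lg*, *Vcam1* and *Il10* had no entry.

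The opposite class held 228 genes whose excess in tolerized cells with Ag was lost with PI, 36.7% of the 622 higher with Ag. Neutrophil markers were also higher in TAg, and with the marker scores as covariates 325 genes were higher with Ag and 124 of the 228 remained in this class. The median gap of the 228 was 1.18 with Ag, −0.35 with PI and −0.02 at rest. At rest 12 were higher and 1 lower in tolerized cells, against 2.61% and 0.644% of all tested genes. For 220 of the 228 the interval of the gap with PI lay below 1. Of all 492 genes higher with Ag and above 50 with PI this held for 268 (54.5%), compared with 89.1% of all genes at that level. A smaller excess could remain: with PI the replicates of 13 of the 228 still separated with TPI higher, against 24.1% of all tested genes. Naive cells fell with Ag for most of these genes: 193 of the 228 were lower in NAg than in resting naive cells and 5 were higher, against 16.2% and 14.2% of all tested genes. In the deficit class, 160 of 204 were higher in NAg than at rest and 1 was lower. The NAg libraries enter both the choice of the classes and these counts, which are therefore descriptions. From Ag to PI, naive cells rose for 166 of the 228 genes, 112 of them with no called change in tolerized cells, and tolerized cells fell for 33, where 14.3% and 13.1% of all tested genes did. These changes are also parts of the difference of gaps that chose the class, so that their counts are descriptions.

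Among the 8 largest differences of this class in genes that share no exon with another were 2 genes of naive identity and of exit from lymphoid tissue. *Klf2* (chr8:74842932-74845555), a transcription factor of quiescent T cells that sustains *S1pr1*, had 400, 248 and 808 in NAg, 1294, 1161 and 1075 in TAg, 10619, 8294 and 9078 in NPI and 3501, 3377 and 3151 in TPI. It was lowest in NAg and highest in NPI, with the tolerized cells between and no overlap in either gap. The gap of 1.27 with Ag became −1.48 with PI, a difference of −2.75 (standard error 0.43, adjusted p = 0.000208). *S1pr1* (chr3:115413351-115417973), the sphingosine 1-phosphate receptor that guides T cells out of lymphoid organs, had 315, 408 and 378 in NAg, 714, 786 and 816 in TAg, 5164, 3977 and 5955 in NPI and 1754, 1607 and 1707 in TPI. The same order held, and the difference was −2.65 (standard error 0.17, adjusted p = 3.71e-10). Resting naive and tolerized cells had 6304 and 5722 of it on average, above both Ag groups. Each average was also above the PI libraries of the same cell state.

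*Rgs14*, a regulator of G protein signaling, went from 32.9 to 52.8 in NAg and 99.1 to 170 in TAg to 746 to 936 in NPI and 318 to 413 in TPI (difference −2.75, standard error 0.26). It belongs with *Klf2*, *S1pr1*, the gamma-tubulin gene *Tubg1* (−2.42), *Pglyrp2* (−2.35), the unconventional myosin *Myo6* (−2.23), the kinesin *Kifc1* (−2.21) and *Cep57l1* (−2.19) to the 20 genes called higher in tolerized cells with Ag and lower with PI. *Fam101b* had the same course with a gap with PI of −0.97, short of the 2-fold limit (difference −2.80, standard error 0.26). *Igfbp4*, a binding protein of insulin-like growth factors, was different, since its tolerized cells were lower with PI than with Ag (log2 ratio −1.50): 1339, 1580 and 1692 in NAg, 6354, 5509 and 6443 in TAg, 3626, 3503 and 3688 in NPI and 1906, 2317 and 2235 in TPI. TAg was the high group and NAg the low one, and with PI the order was turned (difference −2.73, standard error 0.27, adjusted p = 1.84e-06).

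*Dusp6* (chr10:98725865-98730122), the cytoplasmic phosphatase of ERK, was the tolerance-associated gene whose excess shrank. It had 155, 117 and 179 in NAg, 1517, 1781 and 1615 in TAg, 2202, 2085 and 2242 in NPI and 3955, 3390 and 3083 in TPI. NAg stood alone at the bottom, and the PI groups still did not overlap. The gap fell from 3.44 to 0.68 (95% confidence interval 0.34 to 1.01), a difference of −2.76 (standard error 0.25, adjusted p = 4.43e-07), with naive cells 3.85 and tolerized cells 1.09 higher with PI than with Ag. *Npnt*, which encodes an extracellular matrix protein (difference −2.68, standard error 0.49), and *Cd33*, a receptor of myeloid cells (−2.85, standard error 0.67), were also among the 8 genes named for the largest differences of this class. *Cd33* had 62.0 to 164 in TAg. The neutrophil sums given above were higher in TAg than NAg, but they were also higher in TPI than NPI. The part of neutrophils in the values of *Cd33* was not tested beyond the fit with marker scores.

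**Figure D3:**
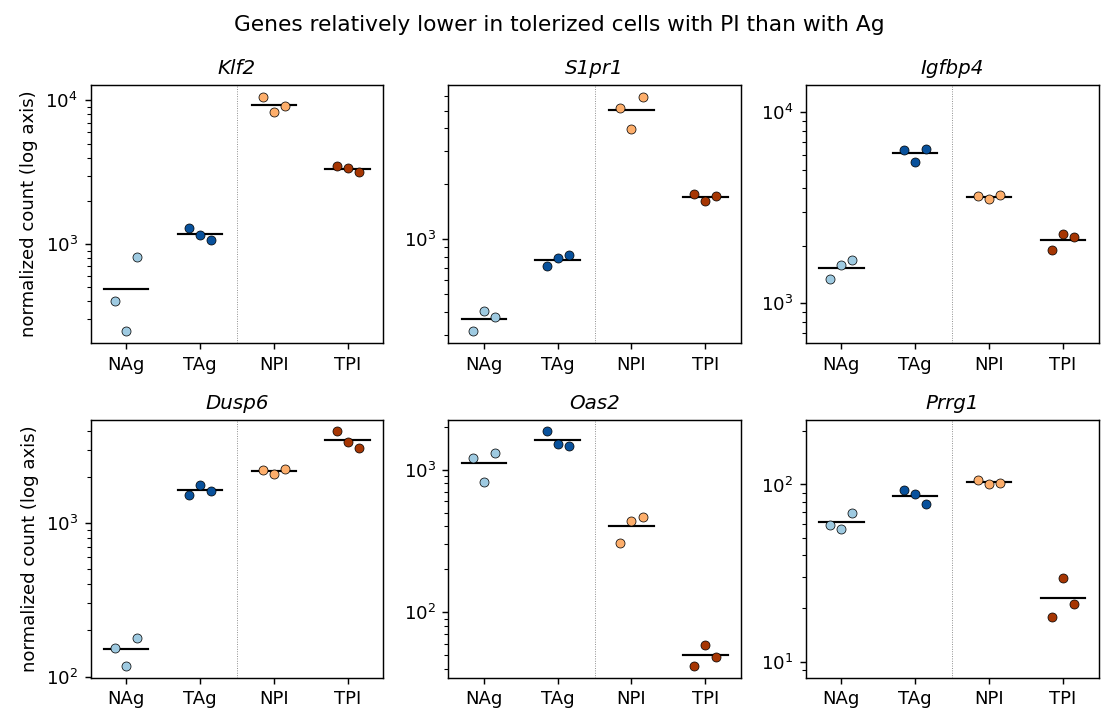
Normalized counts (log axis) of *Klf2*, *S1pr1*, *Igfbp4*, *Dusp6*, *Oas2* and *Prrg1* in NAg, TAg, NPI and TPI, with 1 point per library and a bar at the mean of 3. With Ag the tolerized cells lie above the naive cells for each gene, although the gaps of *Oas2* and *Prrg1* with Ag did not pass the test, and with PI they lie below for all but *Dusp6*.

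Differences called with PI and not called in the same direction with Ag formed 2 further classes. They were restricted to genes above 50 in an Ag group and with a called difference of gaps. A gap with Ag short of the call limits could remain, as for *Ctla4* and *Tnfrsf4* below. Tolerized cells were called higher with PI only for 237 genes, 40 of which were lower with Ag and are described above. The median gap of the 237 was −0.34 with Ag, 1.34 with PI and 0.29 at rest, where 35 were higher and 0 lower in tolerized cells (edgeR at the call limits; 2.61% and 0.644% of all tested genes). For 87 of them the tolerized cells alone rose from Ag to PI, for 69 the naive cells alone fell, for 32 both rose and for 16 they moved apart. In all, tolerized cells rose for 135 and naive cells fell for 94, against 12.4% and 13.1% of all tested genes. Lower with PI only were 175 genes, with medians of 0.30 with Ag, −1.23 with PI and −0.36 at rest, where 15 were lower, against 0.644% of all tested genes. For 68 of the 175 naive cells alone rose and for 53 tolerized cells alone fell. In all, naive cells rose for 96 and tolerized cells fell for 67, against 14.3% and 13.1% of all tested genes. In both classes these changes are parts of the difference of gaps used for the choice, so that their counts are descriptions. Another 96 genes higher and 127 lower with PI had no call with Ag, with a mean of 50 or less in both Ag groups, so that nothing is said of their gap there.

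*Oas2* (chr5:121180342-121199862), an interferon-induced oligoadenylate synthetase, had the largest difference among the genes lower with PI only that share no exon with another gene. Its counts were 1206, 821 and 1299 in NAg, 1854, 1511 and 1464 in TAg, 306, 435 and 469 in NPI and 42.0, 59.3 and 48.6 in TPI. TPI stood far below the other groups. The gap was 0.54 with Ag (adjusted p = 0.0687) and −3.03 with PI, a difference of −3.57 (standard error 0.37, adjusted p = 3.59e-06), and at rest *Oas2* was lower in tolerized cells as well (−1.37, adjusted p = 0.0014). *Prrg1*, a transmembrane protein with a Gla domain, had 56.4 to 69.3 in NAg, 77.9 to 92.5 in TAg, 100 to 106 in NPI and 17.8 to 29.6 in TPI (difference −2.68, standard error 0.30). The zinc finger gene *Sall2* followed it (−2.80, standard error 0.29), with 13.7 to 21.8 in TPI against 66.0 to 91.7 in NPI, and so did *H2-T3*, a nonclassical MHC class I gene (−2.48, standard error 0.32).

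*Spry1* (chr3:37538869-37543520), a feedback inhibitor of RAS and ERK signaling, was an example of the opposite kind. It had 6594, 6555 and 6966 in NAg, 7276, 6730 and 7970 in TAg, 5568, 5438 and 5749 in NPI and 62086, 50200 and 47957 in TPI. The Ag groups overlapped and TPI alone was high. The gap was 0.13 with Ag (adjusted p = 0.748) and 3.26 with PI, the difference 3.13 (standard error 0.39, adjusted p = 2.43e-05), and the gap at rest 3.45 (adjusted p = 0.00011). For *Spry1* the gap was thus present at rest and with PI and not detected with Ag.

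Many genes that differed under both stimuli already differed at rest. Of the 162 genes higher with both, 98 were higher in resting tolerized cells, against 2.61% of all tested genes, and 66 remained in this class with the marker scores as covariates. Their median gap was 1.76 with Ag, 1.65 with PI and 1.56 at rest. The difference of gaps was called above 0 for 6 of them, below 0 for 13 and not called for 143. *Il10* (chr1:132916422-132921551), the immune-suppressive cytokine, had 120, 82.2 and 45.1 in NAg, 3476, 3094 and 3719 in TAg, 463, 582 and 535 in NPI and 22147, 12099 and 14645 in TPI. PI raised it in both states and left the gap: tolerized cells were higher by 5.39 with Ag and 4.95 with PI, a difference of −0.44 (standard error 0.39, adjusted p = 0.427, 95% confidence interval −1.28 to 0.40). *Lag3* (chr6:124854379-124861723), an inhibitory receptor for MHC class II, had 173, 117 and 125 in NAg, 2379, 3015 and 2662 in TAg, 87.4, 117 and 130 in NPI and 2764, 1658 and 1996 in TPI. Its gap was 4.28 with Ag and 4.26 with PI, and the interval of the difference, −1.05 to 1.01, spans a 2-fold change either way.

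*Lpar3*, a lysophosphatidic acid receptor, had 22.8, 14.1 and 14.3 in NAg, 268, 482 and 364 in TAg, 0, 0 and 2.55 in NPI and 125, 48.3 and 41.4 in TPI. With PI it was at least 24-fold higher in tolerized cells, taking the limit of 3 counts per library for NPI. The other genes named for the largest gaps with PI in this class were *Stard13*, a GTPase-activating protein (gap 4.75 with PI), *Scg2*, a secretogranin (4.74), and *Tnfsf4*, the OX40 ligand (4.32). *Tnfsf4* is 1 of the 6 genes whose gap grew with PI: it had 47.9, 18.8 and 27.5 in NAg, 161, 97.8 and 149 in TAg, 39.5, 45.1 and 43.3 in NPI and 1003, 781 and 771 in TPI. TPI alone was high, and the difference of gaps was 2.20 (standard error 0.39, adjusted p = 0.000193). With marker scores of other cell types as covariates the class higher with both held 76 genes, of which 66 were among the 162, and the 622 genes higher with Ag became 325.

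Only 2 of the 33 genes lower with both stimuli had a called difference of gaps, both above 0, and 15 of the 33 were lower at rest, against 0.644% of all tested genes (median gap −1.57 with Ag, −1.37 with PI and −1.13 at rest). *Ptprf* (chr4:117880818-117964010), a receptor tyrosine phosphatase, had 354, 641 and 575 in NAg, 57.2, 81.1 and 69.7 in TAg, 380, 334 and 373 in NPI and 29.1, 36.2 and 45.0 in TPI. Tolerized cells were low whichever way they were stimulated, and the gaps were −2.92 and −3.29 (difference −0.37, adjusted p = 0.405). *Dapk1*, a death-associated kinase, stood at 521 to 653 in NAg, 167 to 172 in TAg, 322 to 390 in NPI and 67.9 to 80.1 in TPI. *Trim13*, a ubiquitin ligase, rose with PI in both states, from 69.3 to 77.0 in NAg and 17.4 to 20.9 in TAg to 492 to 598 in NPI and 134 to 145 in TPI, and its gap stayed at −1.95 and −1.96. *Begain*, *Itm2a* and *Bambi*, a pseudoreceptor of TGF-beta, had gaps with PI of −1.91, −1.77 and −1.72. With the marker scores as covariates this class held 37 genes, but only 9 of the 33 were among them.

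**Figure D4:**
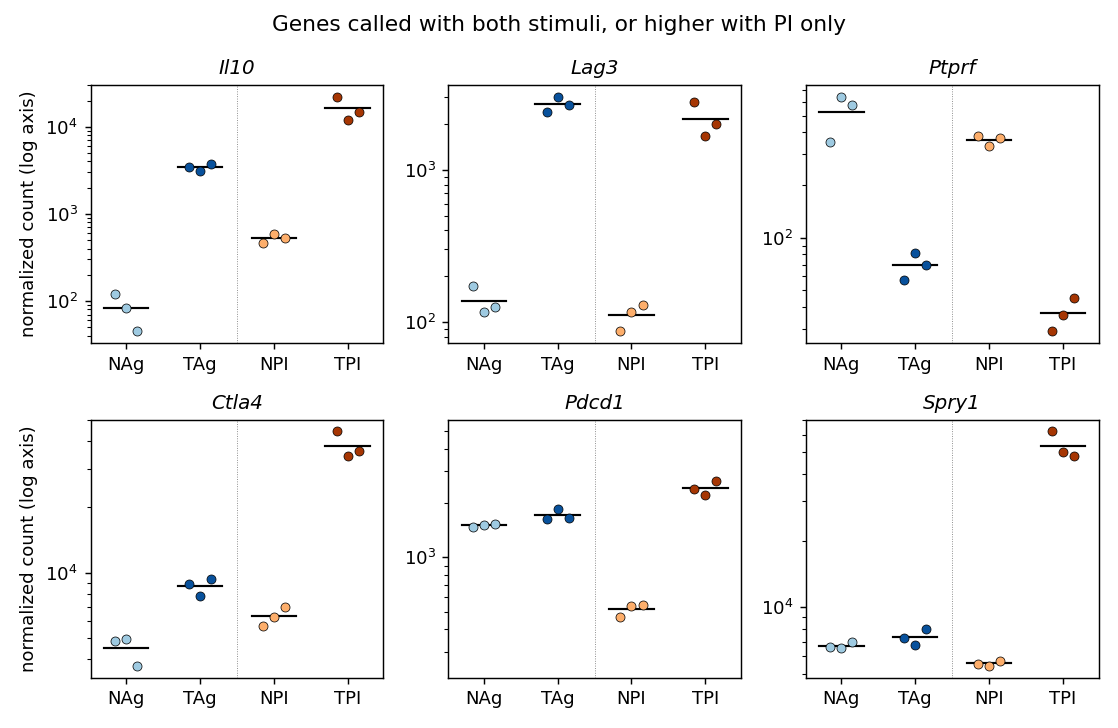
Normalized counts (log axis) of *Il10*, *Lag3*, *Ptprf*, *Ctla4*, *Pdcd1* and *Spry1* in NAg, TAg, NPI and TPI, with 1 point per library and a bar at the mean of 3. The distance between tolerized and naive cells is much the same under both stimuli for *Il10*, *Lag3* and *Ptprf* and wider with PI for *Ctla4*, *Pdcd1* and *Spry1*.

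Gene lists were then read against the background of 4.98% called above 0 and 6.96% below 0. For calls in a single gap, the shares of all tested genes were 3.61% higher and 2.05% lower with Ag. With PI they were 3.38% higher and 2.22% lower. Among 8 immune response genes named by the study, which were chosen on these libraries and are no independent evidence of direction, 7 had a difference called above 0 and 0 below (median gap −2.58 with Ag and −0.01 with PI). Besides those above, these were *Il3* (difference 5.90), the growth factor gene *Csf2* (2.39), the chemokine gene *Ccl1* (2.94, a call lost without NAg replicate 1 and in other settings) and *Nfkb1* (2.60), while *Tnf* (0.99) was just short of 2-fold and reached 1.09 without TAg replicate 1. *Il3* was at 265 to 457 in NAg and at most 60.5 in any other library, so that neither state reached the level of NAg with PI, and *Ccl1*, with 12.1 to 111 in NAg, lost its call in 9 of 12 fits that each left out 1 library. *Csf2* shares 96 bases with *Gm12223*. Of 10 tolerance-associated genes chosen in the same way, 9 were called higher with PI and 8 with Ag, and the difference was called above 0 for *Ctla4* and *Pdcd1* and below 0 for *Dusp6*.

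Among inhibitory receptors the difference of gaps was called for some and not for others. *Pdcd1*, which encodes PD-1, had 1477, 1511 and 1533 in NAg, 1626, 1859 and 1660 in TAg, 469, 540 and 546 in NPI and 2395, 2208 and 2656 in TPI. The Ag groups were close, without overlap, and the PI groups far apart, and the difference of gaps was 2.04 (standard error 0.23, adjusted p = 5.41e-06), with naive cells lower by 1.54 (log2 ratio −1.54) and tolerized cells 0.50 higher with PI than with Ag. *Ctla4*, which competes with CD28 for its ligands, had 4838, 4942 and 3737 in NAg, 8897, 7787 and 9398 in TAg, 5715, 6285 and 6970 in NPI and 44489, 34421 and 36040 in TPI. TPI stood above all others (difference 1.65, standard error 0.26, adjusted p = 0.00014). With Ag the tolerized cells were also higher without overlap, by 0.95 (adjusted p = 0.000918), short of the 2-fold limit. Of 15 co-inhibitory genes, 6 were higher with Ag and 11 with PI, against 3.61% and 3.38% of all tested genes. The difference was called above 0 for 4 (26.7%), namely *Pdcd1*, *Ctla4*, *Btla* (1.78) and *Entpd1* (1.35), and below 0 for 1. For *Lag3*, *Tigit* (−0.56) and *Havcr2* (−0.33) it was not called, although that of *Tigit* was −1.10 and called without NAg replicate 1.

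Of 13 costimulatory receptors, the difference was called above 0 for 4 (30.8%), below for 0 and not called for the rest. The 4 were the adhesion receptor *Slamf1* (2.76), and *Tnfrsf1b* (1.61), *Tnfrsf4* (1.19) and *Tnfrsf18* (1.16) of the TNF receptor family. *Slamf1* turned over (gap −1.50 with Ag and 1.26 with PI), while the gaps of the TNF receptor genes were 0.10, 0.99 and 0.13 with Ag and 1.71, 2.18 and 1.29 with PI. *Tnfrsf18* shares exon bases with another gene, as do *Nfkb2*, *Jun*, *Mafg*, *Lcp2*, *Dgka*, *Irf1*, *Rora*, *Bhlhe40* and *Hk1*, named below, and the values of these are uncertain.

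Among inducible transcription factors, the NF-kB list showed the highest share. Of 17 NF-kB subunits, inhibitors and targets, 10 (58.8%) had a difference called above 0 and 0 below, with a median gap of −0.55 with Ag and 0.64 with PI. *Nfkb1*, the subunit made as p105, had 50964, 56319 and 56852 in NAg, 19475, 16328 and 19228 in TAg, 16982, 19624 and 17540 in NPI and 37036, 36100 and 36951 in TPI (difference 2.60, standard error 0.13, adjusted p = 2.08e-13). It thus turned over, with NPI at the level of TAg. *Nfkbid*, a nuclear inhibitor-like regulator, went from 21972 to 24597 in NAg and 4027 to 4801 in TAg to 72066 to 74201 in NPI and 75202 to 77993 in TPI (difference 2.46, standard error 0.13), and *Nfkb2* and *Rel* followed with 1.98 and 1.97.

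In the NR4A family all 3 members had a lost Ag deficit, with differences of 2.82 for *Nr4a1*, 3.25 for *Nr4a2* and 3.43 for *Nr4a3*. *Nr4a1* reached 193200, 190400 and 200190 in NPI and 177500, 175370 and 179230 in TPI, from 58617, 62187 and 69904 in NAg and 8668, 6661 and 9303 in TAg. Its PI groups were close but did not overlap, and the gap with PI was −0.13 (adjusted p = 0.715). None of the 6 EGR and NAB genes of the same list had a called difference. Of 13 AP-1 genes, 5 were above 0 (38.5%), led by *Fosl2*, *Atf3* (2.05) and *Mafg* (1.66), and 1 below: *Jun* (−1.69), whose gap went from 1.18 to −0.51. Of 12 NFAT and calcineurin genes, *Nfatc1* (1.62) and the calcineurin inhibitor *Rcan1* (1.68) were above 0 and *Nfatc2* (−1.08) below, the last falling short of 2-fold, at −0.957, without NAg replicate 3.

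**Figure D5:**
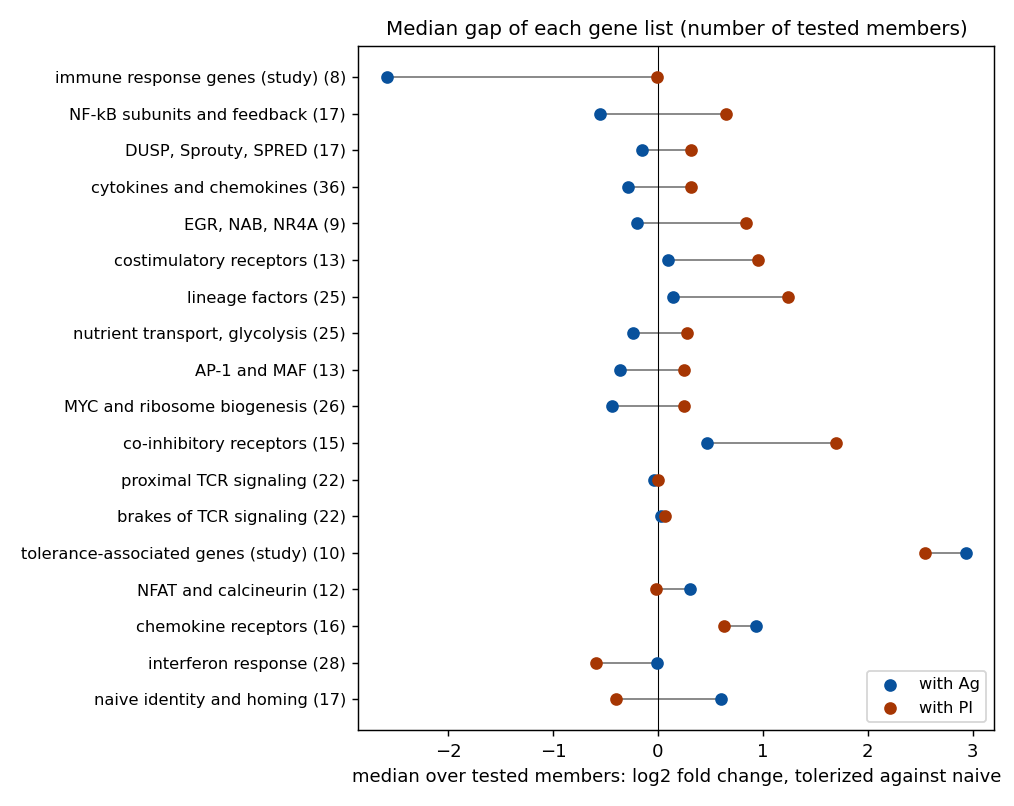
Median gap of each of 18 gene lists with Ag and with PI (horizontal axis, log2), with 1 pair of points per list. The medians lie higher with PI for lists such as the immune response genes and NF-kB, near each other for the tolerance-associated genes, and lower with PI for the naive identity and interferon lists.

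Genes that restrain signaling were found on both sides. Of 17 dual-specificity phosphatases, Sprouty and SPRED genes, which damp ERK and other MAP kinases, 9 (52.9%) were above 0, with *Spry1* and *Dusp16* (2.16) in the lead, and 3 (17.6%) below, with *Dusp6* and *Dusp10* (−2.25). *Dusp10*, a phosphatase of p38 and JNK, had a gap of 0.58 with Ag (adjusted p = 0.229) and −1.67 with PI. Of 22 brakes on TCR signaling, 6 were above and 5 below. The SRC-like adaptor *Sla* (3.06) and the phosphatase gene *Ptpn22* (2.40) were among those whose Ag deficit was lost, and *Dgka*, the kinase that removes diacylglycerol, among those whose excess was lost (−1.88, with gaps of 1.53 and −0.35). *Ubash3b*, a phosphatase that acts on proximal TCR kinases, had 4360, 6495 and 5432 in NAg, 4603, 6442 and 5269 in TAg, 1313, 1329 and 1265 in NPI and 6395, 5468 and 5955 in TPI. NPI alone was low, and the difference of 2.19 (standard error 0.19, adjusted p = 1.12e-07) rested on the naive cells.

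Of 22 proximal TCR signaling genes, 4 (18.2%) had a difference above 0 and 3 (13.6%) below, and the median gap was near 0 with both stimuli (−0.03 and 0.0023). *Zap70* (1.50) and *Lcp2* (1.52), a kinase and an adaptor of the TCR complex, were called higher with PI only. *Cd3g*, a chain of the TCR complex, had a difference of −1.32.

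The naive identity and interferon lists lay on the negative side. Of 17 genes of naive identity and homing, 5 (29.4%) were called below 0 and 0 above, among them *Klf2*, *S1pr1*, the transcription factor *Tcf7* (−1.53) and *Lef1* (−1.48), the last outside the naming rule and chosen after its values were seen. The median gap was 0.60 with Ag and −0.40 with PI. Of 28 interferon response genes, 10 (35.7%) were below 0 and 1 above (median gap −0.01 with Ag and −0.59 with PI). *Irf1* went from 8164, 6962 and 8358 in NAg and 11080, 8471 and 10467 in TAg to 30165, 28620 and 25416 in NPI and 10340, 10686 and 9676 in TPI (difference −1.81, standard error 0.14). Naive cells were higher with PI than with Ag, and the levels of tolerized cells overlapped (0.03, adjusted p = 0.79). *Oasl2*, a further interferon-induced gene, had a difference of −1.93.

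Cytokines and chemokines were spread more widely. Of 36 tested, 13 (36.1%) were above 0 and 3 (8.33%) below. After *Il3* and *Cd40lg*, the next difference was that of the chemokine gene *Ccl22* (4.30, standard error 0.48), which had 206 to 240 in NAg, 13.1 to 13.3 in TAg, 13.5 to 20.9 in NPI and 10.5 to 26.1 in TPI. As for *Lipg*, naive cells were lower with PI than with Ag and no rise in tolerized cells passed the test. Of 25 lineage transcription factors, 14 were called higher with PI and 8 with Ag, against 3.38% and 3.61% of all tested genes. The difference was above 0 for 11 (44.0%), among them the retinoid-related receptor *Rora* (2.49), *Bhlhe40* (2.33) and the coactivator gene *Pou2af1* (2.20), and below 0 for 3. Of 16 chemokine and egress receptors, *Cxcr5* (1.85), which guides cells to B cell follicles, was above 0 and *S1pr1* below.

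Growth genes were read last. Of 26 MYC targets and ribosome biogenesis genes, 0 were called in the gap with Ag or with PI, although 6 (23.1%) had a called difference above 0 and 0 below. These included *Odc1* (1.36) and *Srm* (1.14), enzymes of polyamine synthesis, *Rrp12* (1.25) and *Myc* itself (1.20). The median gap was −0.44 with Ag and 0.24 with PI. *Myc* had on average 26373 in NAg, 15784 in TAg, 15590 in NPI and 21414 in TPI, a gap of −0.74 that became 0.46. Of 25 nutrient transporters and glycolytic genes, 7 (28.0%) were above 0 and 1 (4.00%) below. *Slc7a1*, a transporter of cationic amino acids, had 17087, 17635 and 17647 in NAg, 8805, 7399 and 9116 in TAg, 5843, 7346 and 6775 in NPI and 18062, 17915 and 18893 in TPI. As for *Fosl2*, NAg and TPI formed the high pair (difference 2.51, standard error 0.12, adjusted p = 6.7e-14). *Slc38a1* (1.80) and *Slc7a6* (1.28), also amino acid transporters, and the hexokinase *Hk1* (1.41) had smaller differences of the same direction.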

How the data were processed

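RNA-seq was performed on CD4+ T cells in 6 groups of 3 biological replicates. Per the labels and the methods, ribosomal RNA was depleted, libraries were sequenced paired-end, and the authors aligned reads to mm9 (NCBIM37) with TopHat2 2.1.1 and counted them per Ensembl gene with HTSeq 0.9.1. They deposited raw counts per library, and how overlapping genes and strand were handled is not given in the sources used here.

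Symbols and positions came from an annotation of this build. Counts were scaled by TMM and fitted with edgeR 4.0.16 (R 4.3.3) in 1 model of 6 groups over all 18 libraries. Genes with a mean normalized count of at least 3 in a group were tested by the robust quasi-likelihood F test with Benjamini-Hochberg adjustment. The fold and count limits for calls are those of the study, which however required significance by DESeq2 and edgeR together. A normalized count is a count over the TMM-scaled library size, on the scale of the average library. Promoters are from RefSeq (GRCm38.p6).

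The members and lists were chosen with earlier results of these data known. Genes were named by rule: 8 immune response and 10 tolerance-associated genes of the study, the 8 largest differences of gaps in each of the classes lost deficit, lost excess, higher with PI only and lower with PI only, the 8 largest among genes called in opposite directions, each way, the 6 largest gaps with PI among genes lower with both and higher with both, and up to 4 called members per list. Some genes that met the rule are not reported here. Genes chosen by size had a known symbol, separated replicates, no shared exon and more than 3 counts in a library of each stimulus. Alternatives were DESeq2 1.42.0, its size factors, no filter, only the 12 libraries, replicate number as a block, no minimum mean count, marker scores or sex-linked reads as covariates, and each library left out in turn. Scripts were tested on simulated data. With 3 replicates a group, low counts limit precision.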

Additional observations from a re-analysis of the deposited data

Results flagged for a closer look

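A gap between tolerized and naive cells that differs between PI and Ag, by the test of the difference itself, was found for 858 genes above 0 and 1200 below 0 (quasi-likelihood F test of edgeR, adjusted by Benjamini-Hochberg, 4.98% and 6.96% of tested genes). The named genes among them are given below with the log2 difference of gaps, positive where tolerized cells stood relatively higher with PI.

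Among cytokine and effector genes it was 3.60 for *Il2*, 5.90 for *Il3*, 2.39 for *Csf2*, 2.94 for *Ccl1*, 4.30 for *Ccl22*, 4.89 for *Cd40lg* and 2.20 for *Tnfsf4*. Among inducible transcription factors and their regulators it was 3.43 for *Nr4a3*, 3.25 for *Nr4a2*, 2.82 for *Nr4a1*, 2.60 for *Nfkb1*, 2.46 for *Nfkbid*, 1.98 for *Nfkb2*, 1.97 for *Rel*, 3.75 for *Fosl2*, 2.05 for *Atf3*, 1.66 for *Mafg*, −1.69 for *Jun*, 1.68 for the calcineurin inhibitor *Rcan1*, 1.62 for *Nfatc1* and −1.08 for *Nfatc2*. Among lineage factors it was 2.49 for *Rora*, 2.33 for *Bhlhe40* and 2.20 for *Pou2af1*.

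Receptors with a difference were *Ctla4* (1.65), *Pdcd1* (2.04), *Btla* (1.78), *Entpd1* (1.35), *Slamf1* (2.76), *Tnfrsf1b* (1.61), *Tnfrsf4* (1.19), *Tnfrsf18* (1.16), *Cxcr5* (1.85) and *S1pr1* (−2.65). Signaling genes were *Dusp6* (−2.76), *Dusp10* (−2.25), *Dusp16* (2.16), *Spry1* (3.13), *Lcp2* (1.52), *Zap70* (1.50), *Cd3g* (−1.32), *Sla* (3.06), *Ptpn22* (2.40), *Ubash3b* (2.19) and *Dgka* (−1.88). Naive identity and interferon genes were *Klf2* (−2.75), *Tcf7* (−1.53), *Oas2* (−3.57), *Oasl2* (−1.93) and *Irf1* (−1.81). Growth genes were *Odc1* (1.36), *Rrp12* (1.25), *Myc* (1.20), *Srm* (1.14), *Slc7a1* (2.51), *Slc38a1* (1.80), *Hk1* (1.41) and *Slc7a6* (1.28).

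The genes named for the largest differences of their classes added *Lipg* (5.19), *Plaur* (4.79), *Vcam1* (4.62), *Aig1* (3.75), *Epha2* (3.74), *Syde2* (3.47), *Zswim4* (3.35), *Trib1* (3.28), *Sema7a* (3.21) and *Sdcbp2* (3.21) above 0. Below 0 they added *Cd33* (−2.85), *Fam101b* (−2.80), *Rgs14* (−2.75), *Igfbp4* (−2.73), *Npnt* (−2.68), *Sall2* (−2.80), *Prrg1* (−2.68), *H2-T3* (−2.48), *Tubg1* (−2.42), *Pglyrp2* (−2.35), *Myo6* (−2.23), *Kifc1* (−2.21) and *Cep57l1* (−2.19).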

How the results depend on the processing

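The counts of called genes changed by more than 1.5 times in 2 settings. Without a minimum mean count, 1134 genes were higher and 726 lower in tolerized cells with Ag and 908 higher and 702 lower with PI, the lost deficits numbered 393, the lost excesses 467, the genes lower with both 68, those higher with both 288 and those lower with PI only 395. With marker scores as covariates, 325 genes were higher with Ag and 76 with both. The cause was not tested. These scores left 181 lost deficits and 189 lost excesses, of which 155 and 124 were among the 204 and 228 of the report. With DESeq2 the difference of gaps was called above 0 for 961 genes and below 0 for 1085, and with its size factors for 953 and 1073.

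No pairing by replicate number was seen: deviations of same-numbered libraries correlated between −0.167 and 0.237, and 3 of 18 pairs passed 0.1. With 3 libraries a group, these correlations cannot exclude a pairing. With the replicate block, 853 differences were above 0 and 1193 below, 618 genes were higher and 349 lower with Ag, 581 and 383 with PI, with 201 lost deficits and 231 lost excesses.

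With each library left out, the differences above 0 numbered 781 to 950, those below 0 1114 to 1286, genes higher with Ag 532 to 784, lower with Ag 335 to 388, higher with PI 538 to 632, lower with PI 347 to 434, lost deficits 189 to 223, lost excesses 179 to 314, lower with both 28 to 37, higher with both 149 to 183, higher with PI only 208 to 260 and lower with PI only 157 to 194. The lost excesses reached both ends through NAg, at 314 without replicate 1 and 179 without replicate 2.

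For single genes, 1831 of the recomputed values kept their direction and their side of the limit on adjusted p, 14 lost it, 6 gained it and 11 changed sign. With the limits on fold and mean count included, 17 calls were lost, 13 of them those of *Ccl1*, and 17 gained, 11 by *Tnf* (at most 1.09), 2 by *Maf* and 3 by *Il21*. *Maf* was −1.31 without NAg replicate 1 or TPI replicate 1, *Il21* 1.31 without NAg replicate 3, *Tigit* −1.10 without NAg replicate 1, and *Nfatc2* −0.957 without NAg replicate 3. The gaps with PI of *Begain* (−1.67 without NPI replicate 1), *Lpar3* (5.36 without TPI replicate 1) and *Bambi* (−1.25 with marker scores) were not called there. The changes of sign were those of *Lag3*, whose difference of −0.02 became 0.0369 with DESeq2, 0.0311 with its size factors, 0.0977 with marker scores and −0.2415 to 0.1306 with a library left out, and of *Nfil3* (−0.3856 to 0.02664 with a library left out). *Csf2* was 1.66 and *Ccl1* 2.06 without NAg replicate 1.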
